A study of Mus musculus with 6 samples.

Results

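A set of 31 genes of red blood cell formation and heme synthesis was followed through 6 mouse leukemias, 3 with and 3 without floxed Chd7. They were listed by name, and each was read from the probe set with the highest mean level among those annotated to that gene alone. Of the 31 genes, 26 had such a probe set, among 22180 named genes in all. Hba-a1, Hba-a2, Hbb-bs and Alas2 were only on probe sets shared by several genes, and no listed probe set carried Hbb-bt. All 26 genes had a mean above the level of 4.13 (log2) required of a gene for testing, as did 15526 genes in all.

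Both genotypes carried Mx1-Cre, a recombinase transgene driven by the interferon-responsive Mx1 promoter, and Cbfb+/56M, a conditional knock-in allele that yields the CBFB-MYH11 fusion after Cre recombination. The Chd7f/f leukemias also had both alleles of Chd7, a chromatin remodelling ATPase, floxed; those without are called control. All mice of both genotypes were given pIpC, which switches on Mx1-Cre in many tissues, and the mutagen ENU, and c-Kit+ cells were sorted from the spleen at end stage. ENU mutates at random, so leukemias of 1 group need not share mutations. Levels are RMA values on the log2 scale, 1 array per leukemia, and differences are Chd7f/f minus control; 6 arrays limit the precision of every value. Samples are stated to be independent, with no word on how animals were assigned, so p-values refer to the spread among these samples.

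Kit, the receptor used for the sort, was between 11.68 and 12.48 on all 6 arrays. Chd7 was at 6.17, 7.54 and 5.32 in control replicates 1 to 3 and 5.48, 6.50 and 5.91 in Chd7f/f replicates 1 to 3, with a difference of -0.38 (SE 0.58), or 0.22 without control replicate 2; the positions of its probes within the gene are not known here, and the level is therefore no check of the deletion. Control replicate 1 stood apart on the first principal component, which held 33.7% of the variance over tested genes, at a score of 55.0 against -25.1 to -3.35 on the other arrays. Control replicate 2 alone had a high level of Xist, 10.1 against 3.30 to 3.88. Proliferation genes were lowest in Chd7f/f replicate 1 for 14 of 14 tested. These arrays are named beside the results they touch.

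Red cells form from committed progenitors that express the transcription factor Klf1 and the erythropoietin receptor, and then build hemoglobin, a specialised membrane and its spectrin skeleton while they lose Kit and stop dividing. Heme, the iron-holding ring of hemoglobin, is made in most cells by a chain of enzymes that begins and ends in the mitochondrion, but on a far greater scale in erythroblasts, which use their own first enzyme, Alas2. In the mouse the spleen is a site of red cell formation under stress, and Kit is on early but not on late erythroid cells.

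Most of these genes were well measured in the sorted c-Kit+ cells, on arrays whose medians over all probe sets were 4.72 to 4.84. Car2 and Car1, carbonic anhydrases of erythroid cells, lay at 12.19 to 12.78 and 11.09 to 12.21. Ermap, an erythroid adhesion protein, lay at 10.82 to 11.80, and Rhag, the Rh-associated glycoprotein, at 10.32 to 12.02. Trim10, a RING finger protein of terminal erythroid differentiation, lay near those medians on 3 arrays, at 4.87 to 5.05. A probe set's brightness also depends on its probes, so levels were compared between arrays and not between genes. In these bulk samples, fewer erythroid cells and less erythroid RNA per cell cannot be told apart.

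**Figure D1:**
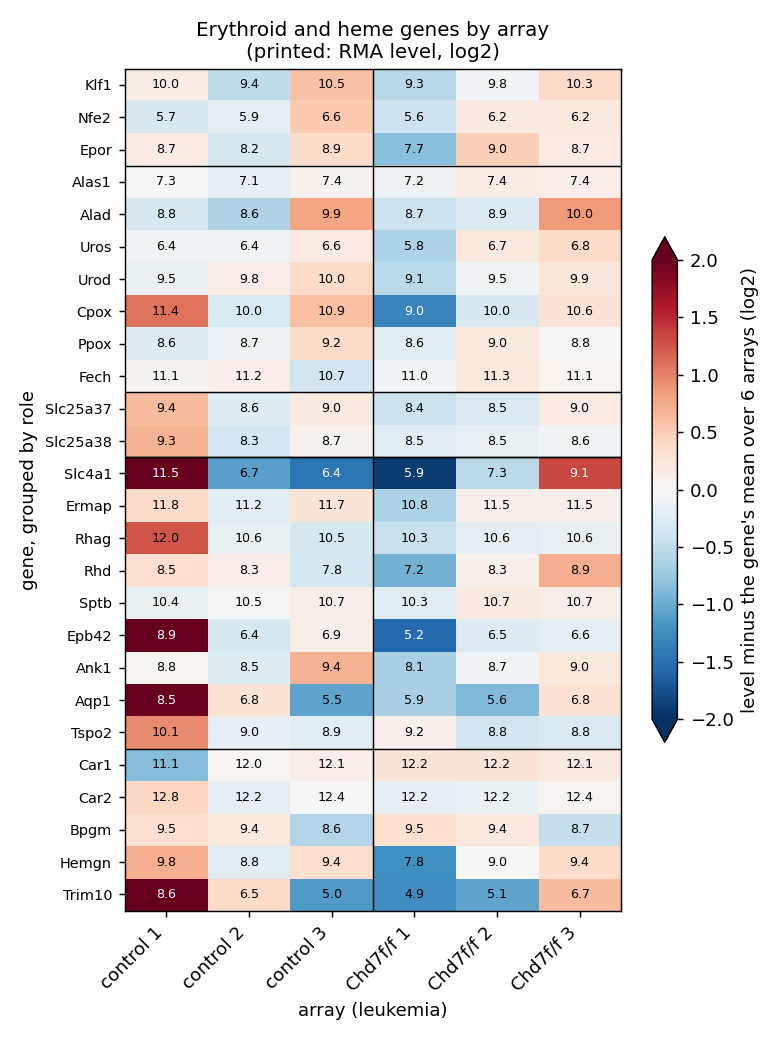
Level of the 26 genes (rows, grouped by role) on each of 6 arrays (columns), with the RMA level (log2) printed and coloured by its distance from the gene's own mean. Control replicate 1 is red for Slc4a1, Epb42, Trim10, Aqp1, Rhag, Cpox and Tspo2 and blue for Car1, and Chd7f/f replicate 1 is blue for most rows.

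These genes varied widely between single leukemias. The median range over the 6 arrays was 1.14 (log2) for the 26 genes and 0.57 for all tested genes, and 16 of the 26 had a range above 1 against 22.3% of tested genes. Median ranges of the other lists read here ran from 0.47 for T cell genes to 2.70 for megakaryocyte genes. Proliferation genes were at 2.15 and other erythroid regulators at 0.63, so a wide range was not particular to the 26 genes. Control replicate 1 held the highest value of 13 of the 26 genes, an array that was highest for 24.4% of tested genes. Chd7f/f replicate 1 held the lowest value of 16 of the 26, where it was lowest for 27.7% of tested genes. Both arrays thus marked the ends of the range for these 26 genes more often than for genes at large, as counts without a test. The 19 other erythroid regulators tested did not share this for Chd7f/f replicate 1, which was lowest for 3 of them, and control replicate 1 was highest for 5. The 14 proliferation genes did share it, with 7 highest in control replicate 1 and all 14 lowest in Chd7f/f replicate 1. In Chd7f/f replicate 1 the proliferation genes had a median deviation of -1.44 from their own means, and the part of cell cycling in the low erythroid levels was not tested.

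The early regulators Klf1, Epor and Nfe2 had ranges of 1.15, 1.32 and 0.93 (log2), above the median of 0.57 for all tested genes. Klf1, the zinc finger factor that activates globin and membrane genes, was at 10.03, 9.38 and 10.47 in control replicates 1 to 3 and 9.32, 9.82 and 10.27 in Chd7f/f replicates 1 to 3. It was highest in control replicate 3 and lowest in Chd7f/f replicate 1, and the groups overlapped. Epor, the receptor that keeps erythroid progenitors alive, was at 8.67, 8.19 and 8.88 in control replicates 1 to 3 and 7.67, 8.99 and 8.67 in Chd7f/f replicates 1 to 3. Only Chd7f/f replicate 1 lay well below the rest for Epor, 0.53 under the next array. Nfe2, a bZIP factor of erythroid cells and megakaryocytes, ran from 5.64 in Chd7f/f replicate 1 to 6.57 in control replicate 3. The genotype differences were -0.16 (SE 0.35) for Klf1, -0.14 (SE 0.37) for Epor and -0.022 (SE 0.28) for Nfe2. All 3 took the opposite sign without control replicate 3 or without Chd7f/f replicate 1, at 0.096 and 0.082 for Klf1, 0.011 and 0.25 for Epor, and 0.24 and 0.18 for Nfe2.

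Of the heme enzymes, Cpox varied most. Coproporphyrinogen oxidase, its product, works at the mitochondrion late in the pathway. Cpox was at 11.41, 10.01 and 10.91 in control replicates 1 to 3 and 8.98, 10.00 and 10.59 in Chd7f/f replicates 1 to 3, so control replicate 1 was the highest and Chd7f/f replicate 1 the lowest, a range of 2.42 (log2). Its difference was -0.92 (SE 0.51), the largest in size among the 7 heme enzymes measured alone, and -0.48 without Chd7f/f replicate 1. Alad, which makes porphobilinogen, had another order: it was at 8.84, 8.57 and 9.95 in control replicates 1 to 3 and 8.73, 8.89 and 10.01 in Chd7f/f replicates 1 to 3. The replicates numbered 3 of both genotypes stood above the other 4 arrays for Alad, and control replicate 1 was not raised.

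The remaining heme enzymes varied less. Uros, which closes the porphyrin ring, ran from 5.85 in Chd7f/f replicate 1 to 6.84 in Chd7f/f replicate 3, and Urod, the next enzyme, from 9.09 in Chd7f/f replicate 1 to 10.00 in control replicate 3. Ppox, which oxidises protoporphyrinogen, had a range of 0.60, and Fech, which inserts the iron, 0.59. Alas1, the first enzyme in cells other than erythroblasts, had the smallest range of the 26 genes, 0.34, between 7.11 and 7.44. The differences of these 6 enzymes, Alad included, lay between -0.26 (SE 0.24) for Urod and 0.13 (SE 0.17) for Fech. The only probe set of Alas2, shared with its neighbour Apex2, was at 10.07, 9.93 and 9.83 in the control replicates and 9.15, 8.81 and 10.17 in the Chd7f/f replicates. It was low in Chd7f/f replicates 1 and 2, and Alas2 cannot be separated from Apex2 on it.

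Both mitochondrial carriers were highest in control replicate 1. Slc25a37, mitoferrin-1, which brings iron into the mitochondrion, reached 9.43 there, with the rest from 8.37 to 8.97. Slc25a38, which supplies glycine for heme synthesis, reached 9.35 there, with the rest from 8.32 to 8.74. Their differences were -0.37 (SE 0.26) and -0.27 (SE 0.26), the latter 0.0022 without control replicate 1.

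Membrane genes of late red cell maturation showed the widest spread. Slc4a1, band 3, the anion exchanger that anchors the membrane skeleton, was at 11.47, 6.73 and 6.35 in control replicates 1 to 3 and 5.92, 7.28 and 9.14 in Chd7f/f replicates 1 to 3. Its range of 5.56 was rank 13 of 15526 tested genes, and control replicate 1 stood 26.8-fold above the median of the other 5 arrays. Chd7f/f replicate 3 held the next value, so the high arrays came from both genotypes. Epb42, protein 4.2, which binds band 3, was at 8.94, 6.42 and 6.85 in control replicates 1 to 3 and 5.19, 6.48 and 6.56 in Chd7f/f replicates 1 to 3. Control replicate 1 was 5.48-fold above the median of the others for Epb42, and Chd7f/f replicate 1 was the lowest. Aqp1, the water channel of red cells, was at 8.52, 6.78 and 5.45 in control replicates 1 to 3 and 5.87, 5.63 and 6.81 in Chd7f/f replicates 1 to 3, again highest in control replicate 1.

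Rhag and Tspo2 had 1 high array and 5 close together. Rhag reached 12.02 in control replicate 1, with 10.32 to 10.62 on the remaining arrays. Tspo2, an erythroid relative of the mitochondrial translocator protein, reached 10.08 there, with the rest from 8.77 to 9.24. Other membrane genes did not stand out as far on that array: Sptb, erythroid beta-spectrin, was at 10.40 in control replicate 1 within 10.31 to 10.72. Ank1, the ankyrin that ties spectrin to band 3, was highest in control replicate 3 at 9.43, and Rhd, an Rh blood group protein, was highest in Chd7f/f replicate 3 at 8.91. The highest level of Ermap, 11.80, was in control replicate 1 and its lowest, 10.82, in Chd7f/f replicate 1. Control replicate 1, the highest array for band 3 and protein 4.2, was therefore not the highest for spectrin or ankyrin. Chd7f/f replicate 1 was the lowest array for band 3, protein 4.2, spectrin and ankyrin, while Tspo2 was lowest in Chd7f/f replicate 2.

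Among cytosolic and nuclear proteins, Trim10 was at 8.56, 6.49 and 4.97 in control replicates 1 to 3 and 4.87, 5.05 and 6.73 in Chd7f/f replicates 1 to 3. Control replicate 1 was the highest, the lower values lay near the array medians, where the background may set the level, and control replicate 2 and Chd7f/f replicate 3 were intermediate. Hemgn, hemogen, a nuclear protein of erythroid cells, was at 9.75, 8.81 and 9.37 in control replicates 1 to 3 and 7.80, 9.04 and 9.40 in Chd7f/f replicates 1 to 3, lowest in Chd7f/f replicate 1 by 1.01. Bpgm, which makes the 2,3-bisphosphoglycerate that loosens oxygen from hemoglobin, was lower in the replicates numbered 3 of both genotypes, at 8.60 and 8.71, than on the other arrays, at 9.38 to 9.52. Car1 ran against the membrane genes: it was at 11.09, 12.00 and 12.09 in control replicates 1 to 3 and 12.21, 12.21 and 12.14 in Chd7f/f replicates 1 to 3. Control replicate 1 was the lowest array for Car1, 1.05 under the median of the other 5, while its paralog Car2 was highest there, at 12.78 against 12.19 to 12.42.

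**Figure D2:**
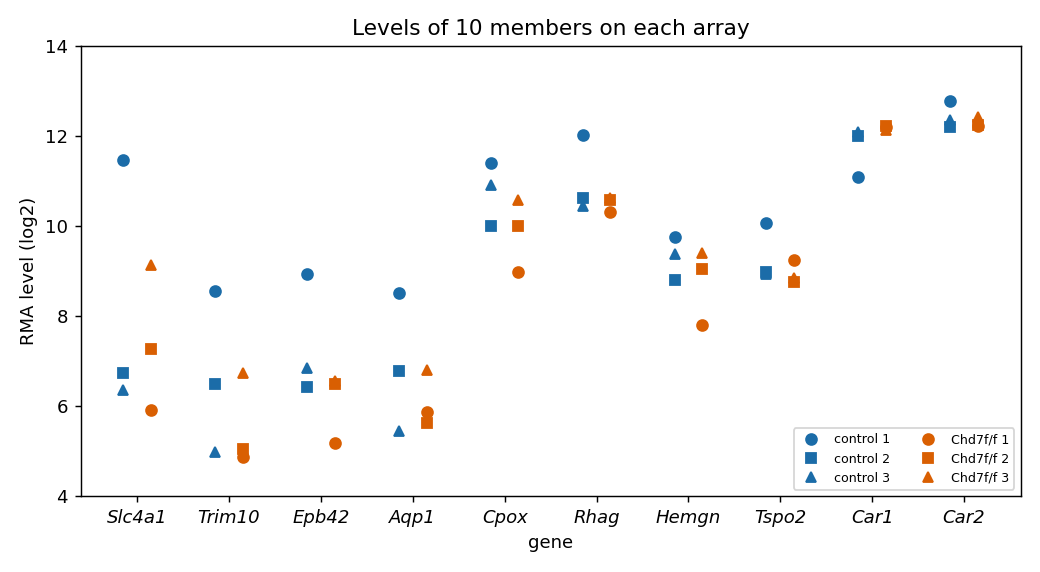
RMA level (log2, vertical axis) of 10 erythroid and heme genes on each array; blue points are control and orange points Chd7f/f leukemias, with the shape giving the replicate number. Control replicate 1 (blue circles) is the highest point for Slc4a1, Trim10, Epb42, Aqp1, Cpox, Rhag, Hemgn, Tspo2 and Car2 and the lowest for Car1.

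Globin genes could be read only from shared probe sets. Alpha globin, for Hba-a1 and Hba-a2 together, was at 12.79, 12.79 and 12.95 in the control replicates and 12.60, 12.59 and 13.09 in the Chd7f/f replicates on the brighter of 2 probe sets. That level is near the top of the scale, whose highest value in the table is 13.5, and the range was 0.50. Beta globin, on a probe set listed for Hbb-b1, Hbb-b2 and Hbb-bs, was at 8.25, 8.39 and 8.74 in the control replicates and 5.85, 7.50 and 8.16 in the Chd7f/f replicates. The Chd7f/f values lay below the control values there, with a difference of -1.28 (SE 0.57), 95% confidence interval -2.67 to 0.10 (limma, adjusted p = 0.9998); groups did not overlap, with Chd7f/f lower, for 4.37% of tested genes. The difference was -0.62 when Chd7f/f replicate 1 was left out. The other 2 beta globin probe sets overlapped between genotypes, at 6.43, 5.97 and 6.70 in the control replicates and 5.40, 5.90 and 6.96 in the Chd7f/f replicates on one and at 5.87, 4.54 and 5.26 in the control replicates and 3.82, 4.58 and 5.81 in the Chd7f/f replicates on the other. Chd7f/f replicate 1 was the lowest array on all 3 beta globin probe sets.

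By stage, early and late genes took different orders over the arrays. The 14 late erythroid genes measured alone had a median deviation from their own means of 0.67 on the array of control replicate 1 and -0.63 on that of Chd7f/f replicate 1, and the 4 others lay from -0.17 to 0.14. Of these 14 genes, control replicate 1 held the highest value for 11 and Chd7f/f replicate 1 the lowest for 10. The 4 early genes, Klf1, Nfe2, Epor and Car1, were at -0.081 in control replicate 1, and 0 of the 4 had their highest value there; they were highest in control replicate 3, at 0.45. Without Car1, which was low on that array, the 3 other early genes were at 0.15 in control replicate 1, with 2 of the 3 above their own mean. The 8 genes listed as heme genes of most cells, namely Slc25a38 and all heme enzymes but Alas2, were at -0.060 in control replicate 1. Without Slc25a38, which was itself highest on that array, the 7 enzymes were at -0.086 there. In Chd7f/f replicate 1, 0 of the 8 lay above their own mean. Of these 3 lists, late genes had the highest median in control replicate 1, while all 3 lists were low in Chd7f/f replicate 1. The proliferation genes were at 0.45 in control replicate 1, close to 0.44 in Chd7f/f replicate 2, where late erythroid genes were at -0.16.

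**Figure D3:**
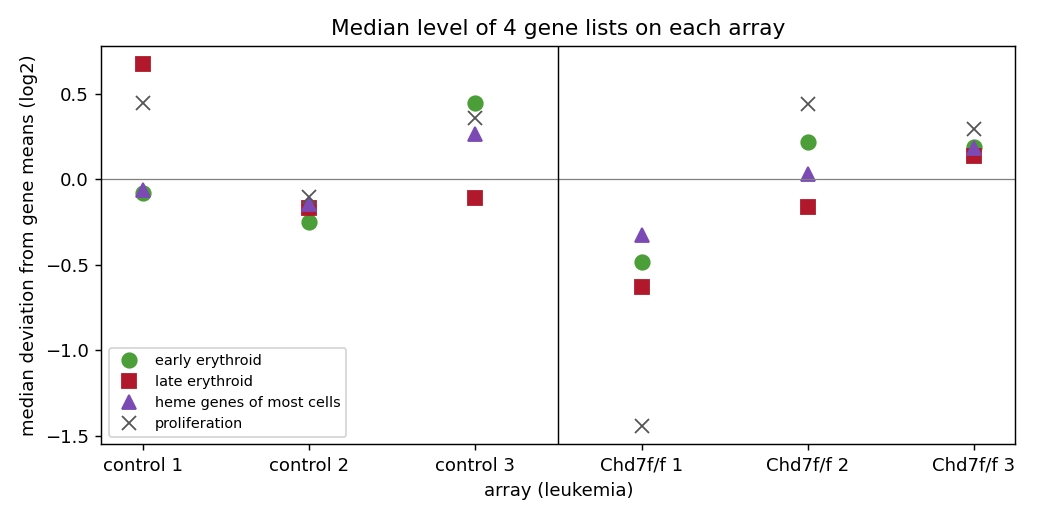
Median deviation of 4 gene lists from each gene's mean over the 6 arrays (log2, vertical axis) by array; lists are 4 early erythroid genes, 14 late erythroid genes, 8 heme genes of most cells and 14 proliferation genes. Late erythroid genes reach 0.67 in control replicate 1, and all 4 lists are below 0 in Chd7f/f replicate 1.

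Promoter letters were read of the listed genes, several of which shared their order over the arrays. RefSeq windows of 250 bases before the annotated start (GRCm38.p6) were on hand for 24 of the 31 genes, in 27 windows. They were searched on both strands for the core bound by GATA factors, AGATAA, also with T as its first letter or G as its last, for CCNCNCCC, the core bound by Klf1 and other KLF and Sp factors, and for TGANTCA, the core bound by Nfe2 and other bZIP factors. The letters of a GATA core were in 14 of the 27 windows, and in 26.5% of all 32851 windows of that length. Those of the KLF core were in 15 of 27 and 45.9%, and those of the bZIP core in 1 of 27, that of Trim10, and 6.75%. No GATA match overlapped a KLF match in these 27 windows. A match is a description of the letters and no evidence of binding.

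Windows with a GATA core are shown for the early genes Klf1 and Epor and for Cpox, Rhag, Epb42 and Trim10. The latter genes shared their highest array. All windows shown were picked for holding the core. They are Klf1 at chr8:84901732-84901981 on the plus strand, Epor at chr9:21963577-21963826 on the minus strand, Cpox at chr16:58669958-58670207 on the plus strand, Rhag at chr17:40810899-40811148 on the plus strand, Epb42 at chr2:121036878-121037127 on the minus strand and Trim10 at chr17:36869324-36869573 on the plus strand. Each is written 5′ to 3′ on the gene's strand and ends at the base before the start, with GATA and KLF cores in capitals.
Klf1: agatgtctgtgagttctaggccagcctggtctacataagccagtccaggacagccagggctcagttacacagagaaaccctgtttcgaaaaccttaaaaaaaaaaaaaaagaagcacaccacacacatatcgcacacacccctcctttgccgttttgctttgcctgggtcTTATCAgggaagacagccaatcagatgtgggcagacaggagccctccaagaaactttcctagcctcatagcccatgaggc
Epor: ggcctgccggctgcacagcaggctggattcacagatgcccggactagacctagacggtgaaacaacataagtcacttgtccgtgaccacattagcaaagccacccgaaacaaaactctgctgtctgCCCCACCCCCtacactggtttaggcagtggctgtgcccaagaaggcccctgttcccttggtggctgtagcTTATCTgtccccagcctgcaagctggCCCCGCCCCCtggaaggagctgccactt
Cpox: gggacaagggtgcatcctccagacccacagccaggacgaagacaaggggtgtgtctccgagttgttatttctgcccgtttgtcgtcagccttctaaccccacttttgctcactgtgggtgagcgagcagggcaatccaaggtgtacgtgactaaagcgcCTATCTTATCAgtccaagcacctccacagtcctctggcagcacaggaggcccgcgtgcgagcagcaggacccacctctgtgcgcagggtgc
Rhag: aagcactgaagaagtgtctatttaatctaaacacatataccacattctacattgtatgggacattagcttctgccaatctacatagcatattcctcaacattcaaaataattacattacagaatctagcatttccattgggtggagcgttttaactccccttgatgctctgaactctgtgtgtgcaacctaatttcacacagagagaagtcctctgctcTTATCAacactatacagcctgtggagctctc
Epb42: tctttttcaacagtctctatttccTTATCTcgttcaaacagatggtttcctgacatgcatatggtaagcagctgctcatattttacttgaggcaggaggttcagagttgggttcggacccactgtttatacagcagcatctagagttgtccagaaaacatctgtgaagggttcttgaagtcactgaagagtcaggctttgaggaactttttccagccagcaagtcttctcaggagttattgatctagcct
Trim10: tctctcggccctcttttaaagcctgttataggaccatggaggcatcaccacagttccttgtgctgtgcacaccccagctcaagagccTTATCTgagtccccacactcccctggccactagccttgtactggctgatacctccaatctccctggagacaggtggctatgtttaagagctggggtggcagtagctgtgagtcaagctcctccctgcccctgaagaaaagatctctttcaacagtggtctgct
The window of Epor also holds KLF cores. Of the 13 genes highest in control replicate 1, 10 had a window, and 6 of these held a GATA core, those of Ermap and Hemgn besides the 4 shown. A GATA core was held by 14 of all 24 listed genes with a window, a share close to that. Those 14 include Hba-a1 and Hba-a2, whose windows are almost the same letters. The windows of Aqp1, Bpgm, Slc25a38 and Tspo2, highest on the same array, held none.

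Between genotypes, none of the 26 genes passed an adjusted p of 0.05 (limma, Benjamini-Hochberg over 15526 genes, adjusted p = 0.9998 for each), a threshold passed by 0.0% of tested genes. At an unadjusted p under 0.05, 0 of the 26 passed against 1.84% of tested genes; the smallest was 0.116 (limma, unadjusted). Lower values in Chd7f/f were found for 20 of the 26 genes and higher values for 6, with 56.3% of all tested genes lower. The median difference of the 26 genes was -0.21, and of all tested genes -0.027. It was -0.37 for late erythroid genes, -0.080 for early ones and -0.021 for heme genes of most cells. Leaving out control replicate 1 brought the median of the 26 to -0.059 and that of late genes to -0.023. Leaving out Chd7f/f replicate 1 gave -0.047 and -0.12, and leaving out control replicate 2 gave -0.39 and -0.57. The median of the 26 was -0.36 when Chd7f/f replicate 3 was left out, and the early value turned to 0.21 without Chd7f/f replicate 1.

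Among the 26 genes measured alone, the 3 largest differences, those of Epb42, Trim10 and Cpox, were in genes with a range above 2. Epb42 was at 7.40 ± 1.35 in control and 6.08 ± 0.77 in Chd7f/f leukemias (SD, n = 3 each), which gives a Chd7f/f minus control value of -1.32 (SE 0.73) with a 95% confidence interval of -3.08 to 0.44. The difference of Trim10 was -1.12 (SE 0.96), that of Aqp1 -0.82 (SE 0.78), of Slc4a1 -0.74 (SE 1.52), of Hemgn -0.56 (SE 0.46) and of Rhag -0.52 (SE 0.42). Without control replicate 1 these became -0.56 for Epb42, -0.18 for Trim10, -0.018 for Aqp1, 0.91 for Slc4a1 and -0.027 for Rhag, and Hemgn was at -0.088 without Chd7f/f replicate 1. Without both arrays numbered 1, 13 of the 26 genes changed sign and Slc4a1 was 1.67 higher in Chd7f/f leukemias.

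Car1 was the single member measured alone whose groups did not overlap, with Chd7f/f higher, as for 2.45% of tested genes, and 0 of the 26 had Chd7f/f lower without overlap, against 4.37%. It was at 11.73 ± 0.55 in control and 12.19 ± 0.040 in Chd7f/f leukemias (SD, n = 3 each), higher in Chd7f/f by 0.46 (SE 0.28) (limma, adjusted p = 0.9998). Without control replicate 1 the difference was 0.14. Genes with small spread bounded the difference more tightly: the 95% confidence interval was -0.22 to 0.43 for Alas1, -0.33 to 0.42 for Sptb, -0.29 to 0.55 for Fech and -0.59 to 0.28 for Car2. The interval of Slc4a1, -4.43 to 2.95, leaves room for large differences in either direction.

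**Figure D4:**
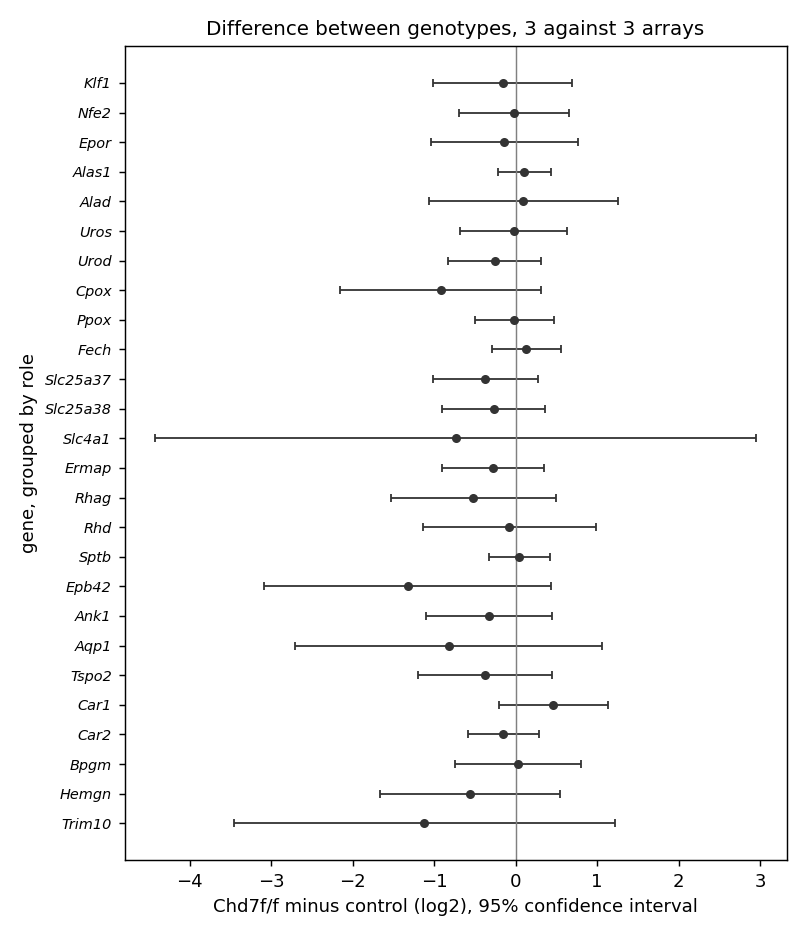
Difference between genotypes (Chd7f/f minus control, log2, horizontal axis) for each of 26 genes; points are limma estimates from 3 against 3 arrays and bars 95% confidence intervals. Every interval includes 0, and the bar of Slc4a1 is the widest.

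Other genes of the pathway were taken from 5 lists. Of 18 other heme and iron handling genes, 8 had higher and 10 lower values (median difference -0.037) and 0 passed at an adjusted or unadjusted p under 0.05 (limma). Tfrc, the transferrin receptor through which erythroblasts take up iron, was at 11.06, 7.67 and 9.03 in control replicates 1 to 3 and 6.36, 8.14 and 9.46 in Chd7f/f replicates 1 to 3, highest in control replicate 1 and lowest in Chd7f/f replicate 1, like many late genes. Abcb10, a mitochondrial transporter that stabilises mitoferrin-1, was lowest in control replicate 1 at 10.73 against 11.04 to 11.32. The differences were -1.27 (SE 1.08) for Tfrc, 0.19 (SE 0.17) for Abcb10, 0.21 (SE 0.24) for the heme oxygenase gene Hmox2 and -0.096 (SE 0.15) for Glrx5, a glutaredoxin of iron-sulfur cluster assembly. Tfrc was at -0.36 when control replicate 1 was left out.

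Of 19 other erythroid regulators, 10 had higher and 9 lower values (median difference 0.027), 0 passed at an adjusted p of 0.05 and 1 had an unadjusted p under 0.05 (limma), against 1.84% of all tested genes. That gene was Sox6, a repressor of embryonic globin genes, at 10.65, 10.16 and 10.33 in control replicates 1 to 3 and 9.96, 9.98 and 9.90 in Chd7f/f replicates 1 to 3. Its groups did not overlap, with Chd7f/f lower as for 4.37% of tested genes, and the difference was -0.43 (SE 0.15) (limma, unadjusted p = 0.0286, adjusted p = 0.9998). Gata1, the master factor of the erythroid lineage, had its lowest level, 9.31, in control replicate 1, and 9.99 to 10.55 on the 5 others. The array with the highest band 3 level thus had the lowest Gata1 level. The difference of Gata1 was 0.26 (SE 0.35), or -0.11 without control replicate 1. Stat5b, which relays the erythropoietin signal, had a difference of 0.27 (SE 0.15), Ldb1, a partner of Gata1 and Tal1, one of 0.18 (SE 0.14), and Zbtb7a, a fetal globin repressor, one of 0.17 (SE 0.13).

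Of 14 other red cell membrane genes, 5 had higher and 9 lower values (median difference -0.18) and 0 passed at an adjusted or unadjusted p under 0.05 (limma). Xk, a Kell-associated membrane protein, ranged from 7.04 in Chd7f/f replicate 1 to 9.94 in control replicate 1, with the 4 others at 8.20 to 8.65. Tfr2, a second transferrin receptor, reached 8.48 in control replicate 1, with the rest from 5.69 to 6.58. Cldn13, a claudin of mouse erythroid cells, followed another order, from 5.95 in Chd7f/f replicate 2 up to 9.60 in control replicate 3. Tmod1, which caps the short actin filaments of the skeleton, had no overlap between groups, with Chd7f/f lower as for 4.37% of tested genes, at 9.70 to 10.33 in control and 9.58 to 9.66 in Chd7f/f leukemias. The differences were -1.29 (SE 0.71) for Cldn13, -0.89 (SE 0.59) for Xk, -0.89 (SE 0.60) for Tfr2 and -0.29 (SE 0.19) for Tmod1. Leaving out control replicate 1 brought Xk to -0.35 and Tfr2 to -0.21, leaving out Chd7f/f replicate 2 brought Cldn13 to -0.58, and leaving out control replicate 3 brought Tmod1 to -0.095.

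The embryonic globin genes Hbb-y, Hbb-bh1 and Hba-x had mean levels below the 4.13 required for testing, with single values of 2.91 to 4.29. The theta globin genes Hbq1b and Hbq1a, the only 2 tested of this list, had differences of -0.52 (SE 0.26) and -0.39 (SE 0.32), and neither passed. Of 9 genes of late erythroblast clearance and redox, 3 had higher and 6 lower values (median difference -0.14) and 0 passed at an adjusted or unadjusted p under 0.05 (limma). Isg20, an exonuclease gene, reached 9.32 in control replicate 1, with the rest from 7.17 to 8.52, and Trim58, a ubiquitin ligase of enucleating erythroblasts, was highest in control replicate 2 at 8.14. The differences were -1.05 (SE 0.60) for Trim58, -0.96 (SE 0.44) for Isg20, -0.14 (SE 0.16) for Ube2o and -0.12 (SE 0.14) for Nprl3, the neighbour of the alpha globin genes. Trim58 was at -0.53 when control replicate 2 was left out, and Isg20 at -0.55 when control replicate 1 was.

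Markers of other cells were read beside these genes. Of megakaryocyte genes, 4 of 6 with a probe set of their own were tested, with mean levels of 7.69 to 8.28 in control and 7.18 to 7.73 in Chd7f/f leukemias, while the platelet chemokine genes Pf4 and Ppbp lay between 3.36 and 4.50. In control replicate 1 the 4 genes had a median deviation of -0.41. The 10 splenic macrophage genes had mean levels of 5.27 to 6.16 in control and 5.57 to 6.41 in Chd7f/f leukemias, and a median deviation of -0.010 in control replicate 1. The 7 myeloid progenitor genes, Kit among them, were at 0.24 in control replicate 1 and at 0.55, their highest, in Chd7f/f replicate 1, where 16 of the 26 erythroid and heme genes were lowest. Mean levels of 6 neutrophil genes ran from 4.72 to 5.41 in control and 4.97 to 6.04 in Chd7f/f leukemias, of 4 B cell genes from 6.27 to 7.03 and 5.87 to 6.77, and of 3 T cell genes from 4.39 to 4.57 and 4.37 to 4.81. Camp, S100a8, Ms4a1, Cd3g, Cd4, Ncr1 and Klrb1c, markers of neutrophils and lymphoid cells, had mean levels below that required for testing. In Chd7f/f leukemias 9 of 10 macrophage, 7 of 7 myeloid progenitor and 6 of 6 neutrophil genes had higher values, with median differences of 0.37, 0.20 and 0.25. Among all 15526 tested genes, 6785 had higher values. Macrophage genes had median deviations of 0.36, -0.35 and 0.36 in Chd7f/f replicates 1 to 3. Myeloid progenitor genes were at 0.55, -0.43 and 0.26 there. Neutrophil genes were at -0.25, -0.24 and 0.88, with all 6 highest in Chd7f/f replicate 3. The control arrays were at -0.54 to 0.11, -0.54 to 0.24 and -0.48 to 0.11 for these 3 lists in turn. Lower values were found for 4 of 4 megakaryocyte and 14 of 14 proliferation genes, with medians of -0.27 and -0.51, and 0 genes of these lists passed at an adjusted or unadjusted p under 0.05 (limma). Proliferation genes had median deviations of 0.45, -0.10 and 0.36 in control replicates 1 to 3. They were at -1.44, 0.44 and 0.30 in Chd7f/f replicates 1 to 3, so only Chd7f/f replicate 1 lay far below the rest. The part of these marker lists in the erythroid values was not tested. Whether the erythroid RNA came from leukemic cells or from other cells of the sort was not tested.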

How the data were processed

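The authors deposited 1 log2 value per probe set and array, 41345 probe sets with 0 missing values between 1.78 and 13.5; the submitters' processing notes list Affymetrix Expression Console and RMA, with versions not given in the sources used here. The RMA method corrects background, equalises the arrays' distributions and summarises probes, so differences in total signal are no longer visible. Probe sets carry mouse genes, as the design text has it, although the labelling protocol names a human chip.

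Gene symbols came from the array's annotation and were brought up to date by Entrez identifier through the RefSeq table of GRCm38.p6 (21994 of 22180 genes matched). There were 23521 probe sets with 1 symbol, 1814 with several and 16010 with none listed. The probe set with the highest mean was kept per gene, and genes at or above the 30th percentile of mean level, 4.13, were tested. The difference between genotypes was fitted in limma 3.58.1 under R 4.3.3, by lmFit and eBayes with no covariate, and p-values were Benjamini-Hochberg adjusted over all 15526 tested genes. With 3 arrays a group, 0.1 is the smallest two-sided p an exact permutation test allows. On simulated data with 3 against 3 arrays and 15526 genes, 200 of them changed per data set, limma recovered 34.0% of genes changed by 1 (log2) and 84.0% at 2. The 26 genes had a median range of 1.14 (log2) against 0.57 for all tested genes. Recovery at the spread of the 26 genes was not tested.

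The members and lists were chosen with earlier results of these data known. All members are named; of each list of other pathway genes the 4 with the smallest p (fewer where fewer were tested) and Gata1 are named, with Kit and Chd7, and cell type markers are given as lists. Alternatives were other normalizations, filters, probe set rules and priors, a block for replicate numbers, array weights, and arrays left out. No batch is given in the labels used here. Promoter sequences are RefSeq's. Plots were drawn with matplotlib 3.10.9.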

Additional observations from a re-analysis of the deposited data

How the results depend on the processing

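Every alternative gave 0 of the 26 members at an adjusted p under 0.05 (limma), and 0 at an unadjusted p under 0.05 except without control replicate 2, where 1 passed (range over left-out arrays 0 to 1). That gene was Cpox, at -1.30 and an unadjusted p of 0.0455 by limma, against -0.92 and 0.119 with all arrays. The median difference of the 26 genes stayed negative when single arrays were left out, between -0.39 and -0.047, but was 0.088 without both arrays numbered 1, when that of late erythroid genes was 0.072. Array weights brought these medians to -0.033 and -0.081. The median of heme genes of most cells, -0.021 as reported, was 0.012 with array weights, 0.0034 with a further quantile normalization and 0.028 with median centring. With single arrays left out, late erythroid genes ranged from -0.57 to -0.023, early ones from -0.22 to 0.21 and heme genes of most cells from -0.26 to 0.14. On leaving out both arrays numbered 1 the sign turned for Klf1 0.12, Nfe2 0.015, Epor 0.29, Uros 0.23, Slc25a38 0.041, Slc4a1 1.67, Car2 0.057, Ermap 0.077, Rhag 0.066, Rhd 0.53, Hemgn 0.13, Trim10 0.16, Aqp1 0.099, Glrx5 0.094, Kit -0.10, Nprl3 0.014, Tfr2 0.056, Tfrc 0.45 and Xk 0.11. With a further quantile normalization the sign turned for Nfe2 0.033 and Uros 0.0073. With median centring the sign turned for Nfe2 0.028, Uros 0.027 and Ppox 0.030. With array weights the sign turned for Uros 0.17, Slc4a1 0.96, Rhd 0.50, Trim10 0.094, Aqp1 0.050 and Bpgm -0.025. Leaving out single arrays turned the sign of genes whose differences then ranged as follows: Klf1 -0.45 to 0.096, Nfe2 -0.18 to 0.24, Epor -0.41 to 0.25, Alad -0.31 to 0.51, Uros -0.22 to 0.28, Ppox -0.14 to 0.16, Fech -0.033 to 0.22, Slc25a38 -0.51 to 0.0022, Slc4a1 -1.65 to 0.91, Car2 -0.28 to 0.017, Rhd -0.46 to 0.38, Sptb -0.035 to 0.17, Tspo2 -0.57 to 0.0016, Bpgm -0.26 to 0.27, Chd7 -0.89 to 0.22, Gata1 -0.11 to 0.49, Glrx5 -0.17 to 0.024, Hmox2 -0.016 to 0.34 and Kit -0.041 to 0.36. The cause of these sign changes was not tested. Alas1, Urod, Cpox, Slc25a37, Car1, Epb42 and Ank1 kept their sign under all 16 alternatives. Same-numbered arrays deviated together by a correlation across genes of -0.025 to 0.034, against -0.099 to 0.089 for arrays of unlike numbers. With 3 arrays a group, these values cannot show whether the numbers pair the samples. A fit with a block for replicate numbers gave a median difference of the 26 genes of -0.21, with 0 of the 26 past either threshold. Under the block Cldn13 went from an unadjusted p of 0.115 to 0.0147 (limma, adjusted p = 0.9996). The SE of Alad went from 0.48 to 0.15. The beta globin difference with single arrays left out, from -1.78 to -0.62, was added after seeing the data. Median centring moved the median of all tested genes by 0.049. Detection calls are not analysed here, so levels near the array medians of 4.72 to 4.84 may lie near background.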
